A study of Mus musculus with 3 samples.

Results

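The miR-181 family was described through the 5p strands of its 4 mouse members, mmu-miR-181a-5p, mmu-miR-181b-5p, mmu-miR-181c-5p and mmu-miR-181d-5p, written without the species prefix from here on. They were picked by name, and they are 4 of the 1915 mature miRNAs listed for each library. The libraries were made from exosomes, small membrane vesicles that cells release, shed by bone-marrow-derived macrophages of wild-type C57BL/6 adult mice. Marrow cells were grown for 24 h with M-CSF, a growth factor that turns them into macrophages, and then kept in medium with exosome-free serum, from which vesicles were pelleted by ultracentrifugation after 72 h. All 3 libraries have the same labels apart from their titles and were taken as 1 group, so no comparison between conditions exists. The titles are CHMP followed by the library's number, and no label explains the abbreviation. No label ties a library to a mouse or a culture of its own, so the 3 libraries may be technical repeats. SDs and edgeR p-values reflect the spread among these libraries. Chi-square p-values set that spread against counting error only.

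A miRNA gene is transcribed into a hairpin that is cut into a 5p and a 3p strand. Usually the strand called the guide is kept in an Argonaute protein and the other, the passenger, is degraded. The guide finds its target mRNAs mainly through its seed, bases 2 to 8. The miR-181 family is known above all from lymphocytes: in mice miR-181a helps set how strongly developing T cells respond through the T-cell receptor, and miR-181 given to marrow progenitors favours the B lineage. Levels here are counts per 1000000 miRNA counts of the library (CPM), and they describe the exosome pellet, since no library of the parent cells was analysed here.

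The mature sequences show what the members share and why their counts need care. They are given 5′ to 3′ with the seed in capitals, from the RefSeq mouse annotation of build GRCm38.p6, the build that mm10 corresponds to.
miR-181a-5p: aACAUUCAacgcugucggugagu
miR-181b-5p: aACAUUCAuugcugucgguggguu
miR-181c-5p: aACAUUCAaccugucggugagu
miR-181d-5p: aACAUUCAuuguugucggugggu
All 4 members have the same seed. No other name had it among the 1623 names of the tables that matched a RefSeq mature sequence. Counted from 1 at the 5′ end, miR-181a-5p differs from miR-181b-5p by A9U, C10U and A21G, and miR-181b-5p is 1 base longer. From miR-181b-5p to miR-181d-5p there is a single substitution, C12U, besides the shorter 3′ end. Removing the base at position 11 of miR-181a-5p gives miR-181c-5p. How the authors assigned reads that fit more than 1 of these names was not given in these sources, so a low count of miR-181d-5p beside a high one of miR-181b-5p is uncertain.

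The members lie in 3 gene pairs. On chromosome 1, Mir181a-1 and Mir181b-1 encode miR-181a-5p at 137966468 to 137966490 and miR-181b-5p at 137966650 to 137966673 on the plus strand, with 5p starts 182 bases apart. In the GENCODE M21 annotation both lie inside the noncoding gene Gm4258. Mir181b-1 lies wholly, and Mir181a-1 in part, in an exon of the noncoding RNA A430106G13Rik. On chromosome 2, Mir181a-2 and Mir181b-2 encode the same 5p strands at 38852741 to 38852763 and 38853845 to 38853868, also on the plus strand and opposite to an intron of Nr6a1, which encodes a nuclear receptor. On chromosome 8, Mir181c and Mir181d encode miR-181c-5p at 84178924 to 84178945 and miR-181d-5p at 84178759 to 84178781 on the minus strand, in an intron of the annotated gene Nanos3. The counts of miR-181a-5p and miR-181b-5p therefore each sum over the genes on chromosomes 1 and 2.

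The libraries held 3008995, 2489984 and 3208617 miRNA counts, and the floor that a count of 0 allows (3 counts) was 0.997 CPM in library 1, 1.20 CPM in library 2 and 0.935 CPM in library 3. Counting intervals and these floors cover counting error only, since the counts are of PCR products. Library 1 stood apart from the other two: its log2 CPM ratios over the 134 miRNAs that averaged 100 CPM or more had a median of 0.62 against library 2 and 0.96 against library 3, while library 2 against library 3 gave 0.16. MiR-21a-5p, the most abundant miRNA by the mean, was at 37316, 305278 and 261488 CPM. Because such a dominant miRNA changes every other share, directions between libraries are given with other scalings, and values within a library are given where they answer the question.

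Exosomes carried miR-181 almost wholly as miR-181a-5p and miR-181b-5p, at moderate levels. The summed members took 0.140% ± 0.0751 of miRNA counts (SD, n = 3). The share was 0.215% in library 1 (Wilson 95% interval 0.210 to 0.221), 0.140% in library 2 (0.135 to 0.145) and 0.0651% in library 3 (0.0623 to 0.0679). Without library 1 the mean was 0.102%. Of the summed member counts miR-181a-5p made up 55.9% ± 18.7, miR-181b-5p 42.6% ± 18.5, miR-181d-5p 1.50% ± 0.519 and miR-181c-5p 0.0103% ± 0.0178 (SD, n = 3 each).

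MiR-181a-5p, the member best known from thymocytes, was at 739, 956 and 423 CPM in libraries 1, 2 and 3, from 2224, 2381 and 1356 counts. It was highest in library 2 and lowest in library 3, with a mean of 706 ± 268 CPM (SD, n = 3). By its mean it ranked 76th of 1915, between miR-210-3p, induced by low oxygen, at 715 ± 207 CPM and miR-30b-5p at 686 ± 399 CPM (SD, n = 3 each). These neighbours lay well within its spread.

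MiR-181b-5p, which carries the same seed and so can pair with the same seed matches, was at 1377, 430 and 216 CPM, from 4143, 1070 and 692 counts. It was highest in library 1, and its mean of 674 ± 618 CPM (SD, n = 3) was 323 CPM without that library. Its mean ranked 78th, between miR-30b-5p and miR-192-5p, a miRNA of gut and liver, at 672 ± 342 CPM (SD, n = 3). The means of miR-181a-5p and miR-181b-5p did not differ beyond their spread.

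MiR-181d-5p, from the chromosome 8 pair, was at 35.9, 12.9 and 12.5 CPM, from 108, 32 and 40 counts. Like miR-181b-5p it was highest in library 1, and its mean of 20.4 ± 13.4 CPM (SD, n = 3) was 12.7 CPM without that library. Next to it in the order of means stood miR-451a, a red-cell miRNA, at 20.8 ± 11.7 CPM, and miR-322-5p at 20.4 ± 11.6 CPM (SD, n = 3 each), within its spread. MiR-181c-5p, its partner in the same locus, had 2, 0 and 0 counts, at or under the floor in every library, and shared its mean with 25 other names. It was not detectable above the floor at this depth, and no order or fold is given for it.

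**Figure D1:**
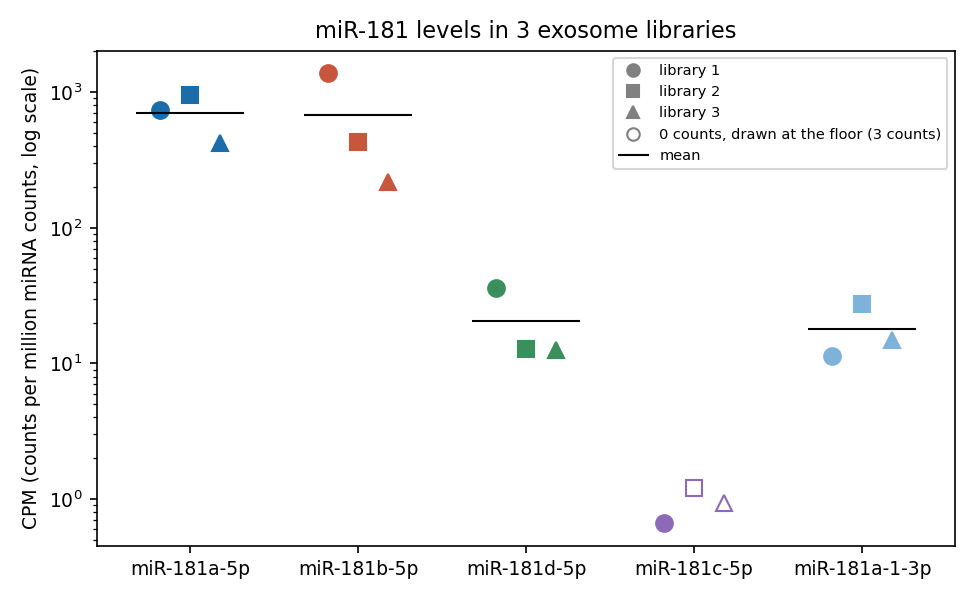
Level of each miR-181 member and of the passenger strand miR-181a-1-3p in libraries 1, 2 and 3 (CPM, log scale), with means as lines and counts of 0 drawn open at the floor. MiR-181a-5p and miR-181b-5p lie between 216 and 1377 CPM, miR-181d-5p and miR-181a-1-3p between 11.3 and 35.9 CPM, and miR-181c-5p at or under the floor.

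Which member leads was not the same in every library, and this does not depend on how libraries are scaled to each other. In library 1 miR-181b-5p was 1.86 times miR-181a-5p (exact counting interval 1.77 to 1.96). In library 2 it was 0.449 times (0.418 to 0.483) and in library 3 0.510 times (0.465 to 0.560). MiR-181b-5p thus led in library 1 and miR-181a-5p in libraries 2 and 3, and the interval of library 1 overlapped neither of the others. The log2 ratio of miR-181b-5p to miR-181a-5p averaged -0.41 ± 1.14 (SD, n = 3), less than its spread.

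As a share of the family miR-181b-5p took 64.0% in library 1 (Wilson 95% interval 62.8 to 65.1), 30.7% in library 2 (29.2 to 32.3) and 33.1% in library 3 (31.2 to 35.2). Libraries 2 and 3 overlapped in these intervals. Without library 1 its mean share was 31.9%, in place of 42.6%.

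**Figure D2:**
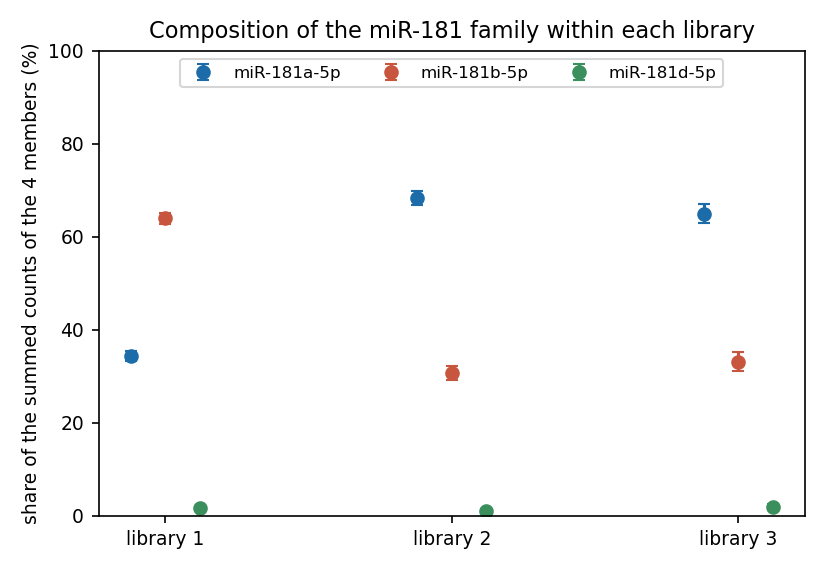
Share of miR-181a-5p, miR-181b-5p and miR-181d-5p in the summed counts of the 4 members (%), by library, with Wilson 95% intervals. MiR-181b-5p is above miR-181a-5p in library 1, at 64.0% against 34.3%, and below it in libraries 2 and 3, at 30.7% against 68.4% and 33.1% against 64.9%.

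The minor member stayed far below the major ones throughout. MiR-181b-5p exceeded miR-181d-5p 38.4-fold, 33.4-fold and 17.3-fold in libraries 1, 2 and 3, a mean log2 ratio of 4.81 ± 0.61 (SD, n = 3). MiR-181a-5p exceeded it 20.6-fold, 74.4-fold and 33.9-fold, a mean log2 ratio of 5.22 ± 0.93 (SD, n = 3). Both gaps pointed the same way in 3 of 3 libraries and were several times their spread, although an exact sign-flip permutation test over 3 libraries cannot give a two-sided p below 0.25.

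MiR-181d-5p made up 2.54% of the counts that it and miR-181b-5p had together in library 1 (Wilson 95% interval 2.11 to 3.06), 2.90% in library 2 (2.06 to 4.07) and 5.46% in library 3 (4.04 to 7.36). The intervals of libraries 1 and 2 overlapped, and that of library 3 stood above library 1. Whether part of the miR-181d-5p counts are miR-181b-5p reads with C12U was not tested.

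Whether members differed between libraries by more than counting error was asked with a chi-square test of each miRNA's 3 counts against the library totals, adjusted by Benjamini-Hochberg over the 353 miRNAs whose counts summed to 30 or more. The test sets libraries against each other, not conditions. All 3 members that could be tested were called at an adjusted p below 0.05, but so were 90.1% of all miRNAs tested, so being called does not distinguish the members. The chi-square statistic, with 2 degrees of freedom, was 603 for miR-181a-5p, 3405 for miR-181b-5p and 51.5 for miR-181d-5p (adjusted p = 1.11e-11 for the last). MiR-181d-5p lost its call without library 1, where its statistic was 0.0165, and 61.5% of all miRNAs tested were called then. MiR-181c-5p had too few counts.

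The size of the spread says more than the calls. The highest library exceeded the lowest 2.26-fold for miR-181a-5p, 6.38-fold for miR-181b-5p and 2.88-fold for miR-181d-5p. Over all 353 tested miRNAs the median was 3.86-fold, with quartiles of 2.23 and 6.62. With all libraries, miR-181b-5p thus lay near the upper quartile and miR-181a-5p near the lower one. A larger ratio was seen for 27.2% of tested miRNAs in the case of miR-181b-5p, 73.9% in that of miR-181a-5p and 62.0% in that of miR-181d-5p. This order rested on library 1. Between libraries 2 and 3 alone the log2 CPM ratio was 1.18 for miR-181a-5p, 0.99 for miR-181b-5p and 0.04 for miR-181d-5p, so that miR-181a-5p then had the largest ratio of the 3. A higher log2 ratio of library 2 over 3 was seen for 13.3% of tested miRNAs in the case of miR-181a-5p, 21.8% in that of miR-181b-5p and 58.4% in that of miR-181d-5p. Unlike the folds above, these ratios keep their sign, so miRNAs higher in library 3 are not counted, however large their gap. For miR-181d-5p, with its ratio of 0.04, this share thus does not place the size of the spread.

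Between libraries 1 and 2 the members differed in direction, within the usual range of all tested miRNAs. The log2 CPM ratio of library 1 to library 2 was 1.68 for miR-181b-5p and 1.48 for miR-181d-5p but -0.37 for miR-181a-5p. Over all tested miRNAs the median was 0.75, with quartiles of -0.45 and 1.70, so each of these members lay between the quartiles. Against library 3 the ratios were 2.67, 1.53 and 0.81 in the same order of members. The median there was 1.00, with quartiles of -0.49 and 2.16, and only miR-181b-5p lay above the upper one. TMM factors lowered every ratio of library 1 by 0.61 against library 2 and by 0.86 against library 3. MiR-181b-5p and miR-181d-5p then stayed higher in library 1 than in both others, with log2 ratios of 1.07 and 0.87 against library 2 and 1.81 and 0.66 against library 3. MiR-181a-5p stayed lower in library 1 than in library 2, at -0.99, but its ratio to library 3 turned to -0.06, and to -0.07 with DESeq2 size factors.

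**Figure D3:**
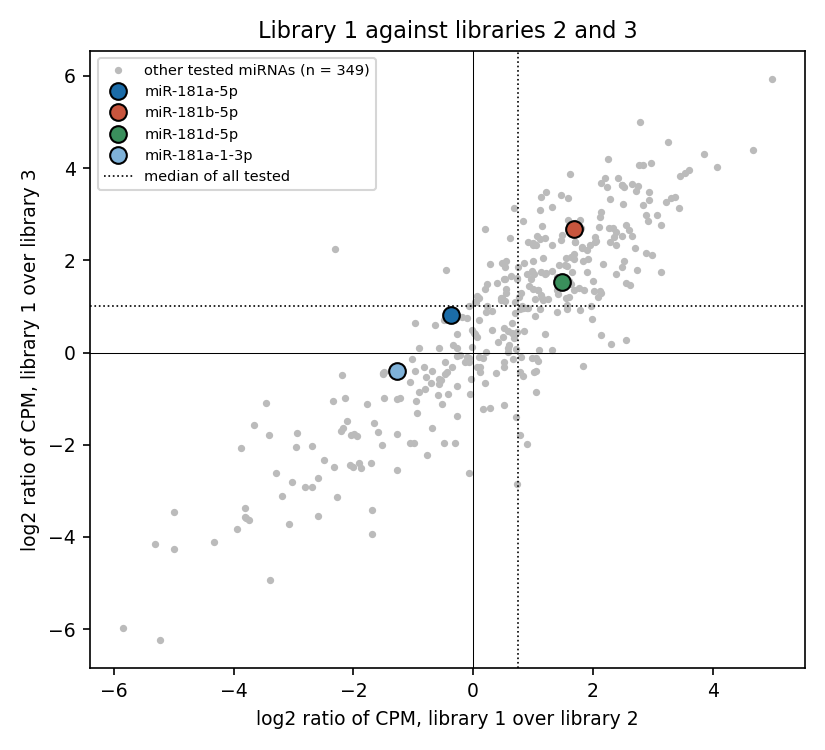
Log2 CPM ratio of library 1 over library 2 (horizontal) and over library 3 (vertical) for all 353 tested miRNAs, each a grey point, with miR-181 strands in colour and the medians as dotted lines. MiR-181b-5p and miR-181d-5p lie above both medians, and miR-181a-5p and miR-181a-1-3p below both.

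**Figure D4:**
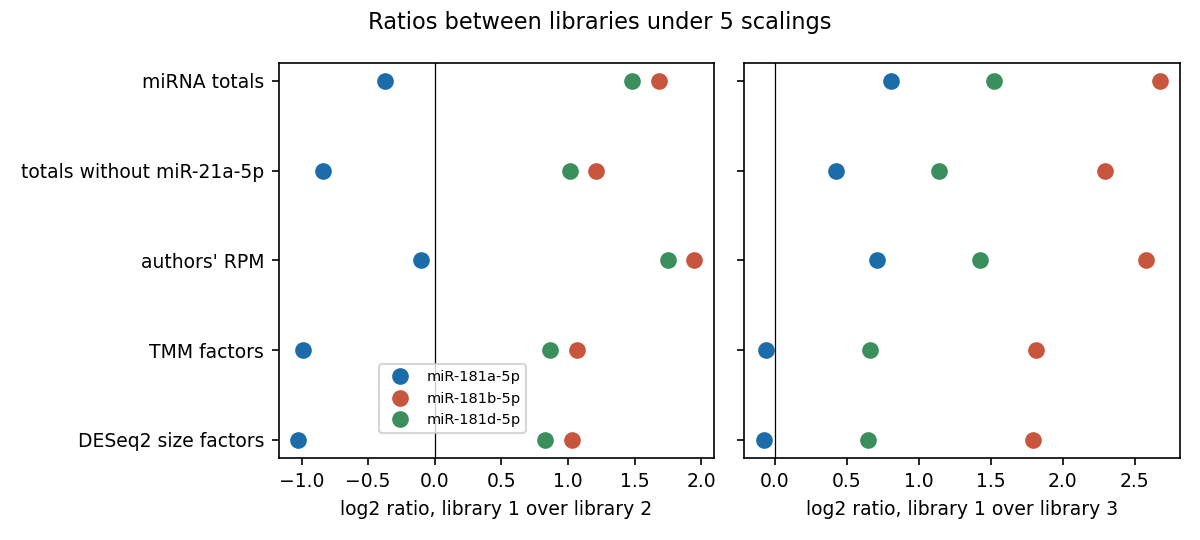
Log2 ratios of library 1 over library 2 (left) and over library 3 (right) for 3 members under 5 scalings. MiR-181b-5p and miR-181d-5p stay above 0 in both panels, and miR-181a-5p stays below 0 against library 2 but moves from 0.81 to -0.06 and -0.07 against library 3 with TMM and DESeq2 factors.

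The 3p strands were asked for because they tell the gene copies apart where the 5p strands cannot. Those of miR-181a differ by U5C and U16C from the chromosome 1 to the chromosome 2 copy, so that even their seeds differ.
miR-181a-1-3p: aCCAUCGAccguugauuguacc
miR-181a-2-3p: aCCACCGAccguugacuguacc
MiR-181a-1-3p, from chromosome 1 at 137966508 to 137966529, had 34, 68 and 48 counts in libraries 1, 2 and 3, or 11.3, 27.3 and 15.0 CPM. MiR-181a-2-3p, from chromosome 2 at 38852785 to 38852806, had 0, 0 and 2 counts, at or under the floor in every library. The chromosome 1 copy thus supplied 150 of 152 counts, or 98.7% (Wilson 95% interval 95.3 to 99.6). This share is of 3p strands only and cannot be carried over to miR-181a-5p, because the hairpins need not keep their 3p strands equally. MiR-181c-3p has the seed of miR-181a-1-3p and differs from it by U16G and U19G, and it had 0, 1 and 0 counts.

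The hairpins of both copies, with the 5p and the 3p strand in capitals, show the shared 5p arm and the differing loop and 3p arm. Mir181a-1 spans 137966455 to 137966541 on chromosome 1 and Mir181a-2 spans 38852735 to 38852810 on chromosome 2, both on the plus strand.
Mir181a-1: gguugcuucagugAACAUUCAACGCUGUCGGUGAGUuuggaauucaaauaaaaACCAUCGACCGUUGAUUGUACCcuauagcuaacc
Mir181a-2: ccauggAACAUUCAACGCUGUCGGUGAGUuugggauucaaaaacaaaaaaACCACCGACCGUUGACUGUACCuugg
The passenger miR-181a-1-3p averaged 17.9 ± 8.39 CPM (SD, n = 3), close to the 20.4 CPM of the guide miR-181d-5p. The order of these strands changed between libraries: miR-181a-1-3p was 0.315 times miR-181d-5p in library 1 (exact counting interval 0.208 to 0.467), 2.13 times in library 2 (1.38 to 3.34) and 1.20 times in library 3 (0.772 to 1.87). It differed between libraries in the chi-square test (statistic 21.8, adjusted p = 2.52e-05), a call lost without library 2, where the statistic was 1.58. Like miR-181a-5p it was highest in library 2.

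The 3p strands of miR-181b were at or under the floor. MiR-181b-1-3p had 2, 1 and 0 counts and miR-181b-2-3p had 1, 0 and 0, so the copies of miR-181b could not be told apart at this depth. MiR-181d-3p had 0 counts in every library.

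How strongly each hairpin favoured its 5p strand was asked with edgeR's quasi-likelihood test of 5p against 3p counts, with library and arm as terms and copy-numbered strands summed per hairpin name. Of 778 hairpin names with both arms listed, 177 had the summed count of at least 60 that was required. The 5p strand was called higher in all 3 miR-181 hairpins tested, at an adjusted p below 0.05. Of the 177 hairpins 80.8% were called in either direction and 42.9% with the 5p strand higher. MiR-181c had too few counts.

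For miR-181a the 5p strand exceeded the summed 3p strands 65.4-fold in library 1 (exact counting interval 46.7 to 94.7), 35.0-fold in library 2 (27.5 to 45.2) and 27.1-fold in library 3 (20.5 to 36.7). The ratio was highest in library 1, whose interval overlapped neither of the others. The fitted log2 ratio was 5.30 (edgeR, adjusted p = 2.16e-06), higher for 5p in 3 of 3 libraries.

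For miR-181b the ratio was far larger, at 1381-fold in library 1 from 3 counts of 3p (exact counting interval 472 to 6699), 1070-fold in library 2 from 1 count (192 to 42302), and at least 231-fold in library 3, where 3p had 0 counts, against 3 counts. In libraries 1 and 2 these intervals, and in library 3 the bound, lay above the interval of miR-181a. The edgeR adjusted p for miR-181b was 2.48e-12. MiR-181d-5p was at least 36.0-fold, 10.7-fold and 13.3-fold above its 3p strand in libraries 1, 2 and 3, against 3 counts per library (edgeR, adjusted p = 2.30e-06).

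Among the 92 tested hairpins with more 5p than 3p counts, the median pooled ratio was 58.8-fold, with an arm below 3 counts in all set to 3. The pooled ratio of miR-181a was 39.2-fold, below that median, and 54 hairpins had a larger one. That of miR-181b was 1476-fold (exact counting interval 576 to 5420), and 17 hairpins had a larger one.

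**Figure D5:**
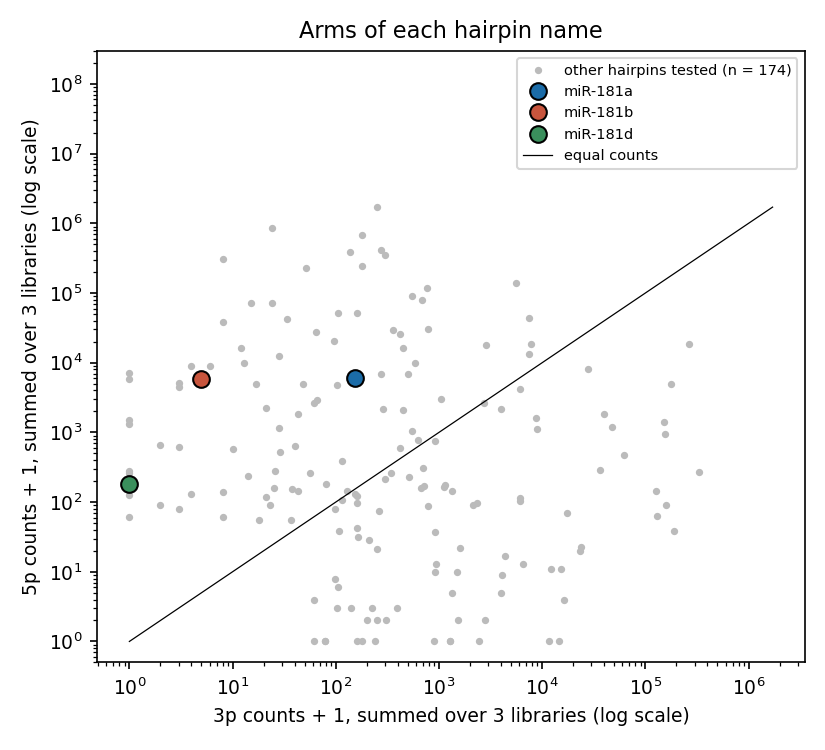
Counts of the 5p (vertical) against the 3p strands (horizontal) of 177 hairpin names, each plus 1 and summed over 3 libraries, on log scales, with equal counts as a line. MiR-181a and miR-181b have nearly equal 5p counts, 5961 and 5905, but 152 and 4 counts of 3p, and miR-181d has 180 and 0.

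Which other miRNAs varied most like the major members was described by the distance between their log2(CPM + 1) profiles over the 3 libraries, each centred on its mean, among 132 other miRNAs averaging 100 CPM or more. Nearest to miR-181a-5p were miR-19a-3p at a distance of 0.20, with 307, 479 and 204 CPM, miR-340-5p at 0.30 and miR-125a-5p at 0.35. Nearest to miR-181b-5p were miR-93-5p at 0.21, with 4825, 1606 and 658 CPM, miR-140-3p at 0.32 and miR-152-3p at 0.34. The members themselves were 1.60 apart, above the median distance of 1.40 from miR-181a-5p to all miRNAs considered, and 72 of the 132 lay closer to it than miR-181b-5p did. With only 3 points to a profile, these names are a description, and 2 of the 6 remained when a mean of 10 CPM was enough.

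Because miR-181 is best known from lymphocytes and is also abundant in brain, miRNAs of those and of blood cells were read beside it. A list of 5 other miRNAs drawn up for lymphocytes summed to 95.4, 2477 and 834 CPM in libraries 1, 2 and 3. Most of it was miR-155-5p, which activated macrophages make too, at 74.8, 2388 and 829 CPM. MiR-150-5p, the defining miRNA of mature lymphocytes, had 0, 0 and 1 counts. MiR-205-5p, which is known chiefly from epithelia and so does not mark lymphocytes, was at 17.6, 87.6 and 3.74 CPM. MiR-138-5p, also on the brain list, had 8, 1 and 2 counts and miR-31-5p 1, 2 and 0. Of these 5 only miR-155-5p and miR-205-5p reached 10 counts in each library.

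The brain list summed to 3732, 940 and 1279 CPM, nearly all miR-128-3p, which is also found outside brain, while the neuronal miR-124-3p had 0 counts in every library and miR-9-5p had 5.65, 10.8 and 14.0 CPM. The blood-lineage list summed to 594, 4730 and 2136 CPM, with miR-142a-3p, made in all blood lineages, at 42.9, 1364 and 819 CPM. MiR-142a-5p, the other strand of that hairpin, varied less, at 292, 818 and 390 CPM, and was the largest part in library 1. Its highest library exceeded its lowest 2.80-fold, against 31.8-fold for miR-142a-3p. MiR-155-5p is on this list too and gave the largest part of its sum in library 2 and, by a small margin over miR-142a-3p, in library 3. The macrophage and myeloid list summed to 82752, 387241 and 383354 CPM, with miR-21a-5p as the largest part in each library and miR-146b-5p at 6950, 41809 and 81689 CPM. MiR-146a-5p, also on this list, was nearly level by CPM, at 33401, 35012 and 36543.

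The sums of the blood and myeloid lists were lowest in library 1, where miR-181b-5p and miR-181d-5p were highest. By CPM, not every miRNA on these lists followed. MiR-342-3p, on the blood list, was highest in library 1 at 149, 106 and 65.4 CPM, although its gap to library 2 is smaller than the shift that TMM factors bring. MiR-511-3p, on the myeloid list, had 10, 2 and 0 counts. MiR-223-3p, a myeloid miRNA on both lists, was lowest in library 3 at 35.6, 52.6 and 33.0 CPM, as was miR-22-3p at 5046, 5088 and 3602 CPM. For both miRNAs the gap from library 1 to library 3 is smaller than the shift that TMM factors bring.

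The erythroid list, at 89.7, 27.7 and 15.6 CPM, the brain list and the stromal list, at 298, 187 and 255 CPM, had their highest sums in library 1 too. For the stromal list the gap to library 3 is smaller than the shift that TMM factors bring. The endothelial list was at 25.9, 44.6 and 25.2 CPM. In such bulk libraries fewer vesicles of a cell type and less RNA per vesicle cannot be told apart, and the part of these other cell types in the miR-181 values was not tested. With miR-143-3p excepted, every tested miRNA of the 7 lists was called in the chi-square test, which is near the 90.1% called over all miRNAs and does not set the lists apart.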

How the data were processed

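Per the labels' protocols, small RNA libraries were built with a NEBNext kit and read from a single end over 50 bases, with no mention of molecular identifiers. The submitters' processing notes name bcl2fastq, BWA and mm10, with no version or role stated. The authors deposited a whole-number count and a normalized value, RPM, per mature miRNA. The deposited RPM was, as worked out from the columns, the count per 1000000 of a denominator of which miRNA counts made up 21.4%, 17.8% and 22.9%. Counts were therefore scaled to each library's miRNA total (CPM). Ratio intervals are exact (Clopper-Pearson) and those of shares Wilson intervals, both at 95%. The chi-square and arm tests were tested on simulated data and adjusted by Benjamini-Hochberg over all features tested. The simulated arm ratios were smaller than the pooled ratios of miR-181a, miR-181b and, with its 3p strand set to 3 counts, miR-181d. They therefore do not cover ratios of that size. Tools were R 4.3.3, edgeR 4.0.16, DESeq2 1.42.0 and scipy 1.17.1. Named miRNAs are the members, the 3p strands of their hairpins, their neighbours by mean CPM, the 3 nearest profiles of miR-181a-5p and miR-181b-5p and lists of cell type markers. Members and lists were chosen with earlier results of these data known. Alternatives were other scalings, filters and tools and leaving out each library. The hairpin sequence of miR-181c was not analysed here.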

Additional observations from a re-analysis of the deposited data

How the results depend on the processing

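MiR-181a-5p, miR-181b-5p and miR-181d-5p were called different between libraries under TMM factors, DESeq2 size factors, totals without miR-21a-5p and other count minimums. With a minimum of 1 count miR-181c-5p was tested too and was not called, and 370 of 886 miRNAs were called in all (41.8%). Leaving out each library gave 2 to 3 member calls, and 177 to 284 calls over all miRNAs in place of 318. The lowest was without library 1, where 177 of 288 tested miRNAs were called (61.5%, against 90.1% with all libraries). The family share was 0.0286% of the authors' RPM denominator, which counts more than miRNAs, in place of 0.140%, and 0.102% to 0.178% with each library left out. Under the other scalings it was 0.130% to 0.171%. Directions between libraries reversed for miR-181a-5p in library 1 over 3 (-0.0564 with TMM, -0.0730 with DESeq2 factors, log2), for miR-181d-5p in library 2 over 3 (0.04 in the main scaling, -0.20 with TMM, -0.18 with DESeq2 factors and -0.32 with RPM) and for the summed family in library 1 over 2 (0.62 in the main scaling, -0.0302 with DESeq2 factors). The counts are the same under every scaling, and why the scalings differ was not tested. The 5p strand was called higher in 3 of 3 hairpins tested in every alternative run, DESeq2 included, except with no filter on low counts, where it was 3 of 4 and miR-181c was not called. The arm test called 143 of 177 hairpins, against 144 with no replicate block and 191 of 500 with no filter on low counts. It called 140 of 161 without library 1, 114 of 171 without library 2 and 119 of 171 without library 3. Without library 2 the edgeR adjusted p was 0.0071 for miR-181a and 0.013 for miR-181d. Of the 6 nearest profiles, 2 remained at a minimum of 10 CPM. No paired analysis of groups was possible because all libraries belong to 1 group. Depth limits miR-181c-5p and the 3p strands of miR-181b, with at most 3 counts in any library.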
